A study of Mus musculus with 48 samples.

Results

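The Snord115 and Snord116 clusters are tandem arrays of small nucleolar RNA (snoRNA) genes in the imprinted Prader-Willi and Angelman region of mouse chromosome 7. Their members were taken by annotation and position, as every row of the gene count table with the type snoRNA and a start from 59300000 to 59900000 on chromosome 7 of GRCm38. This gave 205 of 48440 rows, of which 137 were copies of Snord115 and 68 were copies of Snord116 by sequence. Most carry only a predicted gene name such as Gm22128. All 205 lie on the minus strand inside the host gene Snhg14 (chr7:59307924-59975759). At the upper border of the window, Snord116l10 just inside it held 180 reads over all libraries. Beyond the border, still inside Snhg14, Snord116l11 held 16 reads, Snord116l12 held 3 and Gm22373 held 11.

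RNA was sequenced from the hippocampus of 48 adult female mice of the labelled strain C57BL/6, aged 3 months, as single-end reads of 50 bases. Tissue of both hemispheres was merged and total RNA extracted from it. The study calls the assay mRNA sequencing, and its methods describe no step of RNA selection. How far free snoRNAs, apart from their host transcript, entered the libraries is therefore not known. Control (C) offspring had no prenatal stress, and prenatally stressed (PS) offspring came from dams restrained 3 times daily on embryonic days 13 to 17. The study split PS offspring by their behaviour in a 3-chamber sociability test into socially affected (SA) animals, labelled PS-susceptible, and socially unaffected (SU) animals, labelled PS-resilient. With the serotonin transporter genotype in the label this gave 6 groups, which were 5-Htt+/+ C (n = 8), 5-Htt+/+ SA (n = 8), 5-Htt+/+ SU (n = 8), 5-Htt+/- C (n = 7), 5-Htt+/- SA (n = 8) and 5-Htt+/- SU (n = 9). The labels number each animal but give no litter, so that pups of 1 dam may stand in the same group. The study capped the female pups it used per genotype and litter, but at more than 1. Libraries held 16488405 to 38213754 counts (median 24125647.5), with 3.43% to 5.95% of them at mitochondrial genes. All 6 markers of hippocampal fields and all 7 markers of neurons had reads in every library. The transporter gene itself, Slc6a4, stood at 14.83 to 14.98 CPM (counts per 1000000 of the scaled library total) on average in the groups labelled 5-Htt+/- and at 0.109 to 0.187 CPM in those labelled 5-Htt+/+. Any direction by genotype below is therefore one between libraries labelled 5-Htt+/- and libraries labelled 5-Htt+/+.

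Box C/D snoRNAs are short RNAs that are mostly cut out of introns of a longer transcript and protected by a core of the proteins Fbl, Nop56, Nop58 and Snu13, which assembles on a C box near the 5′ end and a D box near the 3′ end. Most of them guide the methylation of ribosomal RNA. Snord115 and Snord116 have no known ribosomal target, are made in neurons from the paternal chromosome, where their host transcript also runs antisense to Ube3a, and loss of the Snord116 array is a known cause of Prader-Willi syndrome. Snord115 carries a stretch complementary to the serotonin 2C receptor transcript Htr2c, in the region of its editing and splicing sites.

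The sequences show how alike the copies are, and those of some copies named below are printed here, with the Htr2c site. They are GENCODE transcripts of GRCm38, 5′ to 3′, all from the minus strand except the Htr2c site. Capitals mark the C box (ATGATGA) and the D box (CTGA), except in the last Snord115 line, where they mark the complement to Htr2c. Gm22128 is chr7:59771656-59771749, Gm22285 is chr7:59678509-59678602, Gm22851 is chr7:59774190-59774283 and Gm23141 is chr7:59705968-59706061. Among the Snord115 copies Gm22111 is chr7:59447374-59447452, Gm24862 is chr7:59391690-59391768, and the commonest sequence is given as in Gm24866 (chr7:59393561-59393639).
Gm22128: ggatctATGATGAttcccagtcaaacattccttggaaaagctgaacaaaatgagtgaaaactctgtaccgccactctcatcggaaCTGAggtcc
Gm22285: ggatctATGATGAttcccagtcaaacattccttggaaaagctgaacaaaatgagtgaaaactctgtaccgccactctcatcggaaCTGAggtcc
Gm22851: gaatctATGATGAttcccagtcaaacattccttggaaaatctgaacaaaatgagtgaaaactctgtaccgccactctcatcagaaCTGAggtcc
Gm23141: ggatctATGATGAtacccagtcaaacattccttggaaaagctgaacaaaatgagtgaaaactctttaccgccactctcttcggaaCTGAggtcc
Gm22111: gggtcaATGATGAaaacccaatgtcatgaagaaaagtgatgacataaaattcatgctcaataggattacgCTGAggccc
Gm24862: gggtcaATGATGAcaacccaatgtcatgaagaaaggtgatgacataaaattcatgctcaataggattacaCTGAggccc
Commonest Snord115: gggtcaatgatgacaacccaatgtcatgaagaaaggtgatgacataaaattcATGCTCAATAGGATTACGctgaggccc
Htr2c site: cgtaatcctattgagcat

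Gm22128 and Gm22285 have the same 94 bases, and 29 of the 68 Snord116 copies share them. With positions counted from 1 at the 5′ end of Gm22285, Gm22851 differs by G2A, G40T and G82A, and Gm23141 by T15A, G65T and A79T. Counted from the 5′ end of Gm22111, Gm24862 differs by A14C, A35G and G70A. The 68 Snord116 copies hold 26 distinct sequences and 66 of them are 94 bases long. Among the 137 Snord115 copies there are 57 distinct sequences, the commonest shared by 33 copies and the next by 23, and 130 copies are 79 bases long. The C box was searched as exactly ATGATGA in the first 15 bases and the D box as exactly CTGA in the last 12, on the sense strand. Both were found in 64 Snord116 and 121 Snord115 copies, which is 90.2% of all members, against 20.1% of 279 other annotated snoRNAs of 60 to 110 bases outside chromosome 7. Motif and windows are those of the printed members, other spellings or offsets were not searched, and the others were not split by kind. The 20.1% is therefore no measure of how many of them are box C/D snoRNAs. The 18 bases complementary to Htr2c were found whole in 105 of 137 Snord115 copies and in no Snord116 copy. Their complement is chrX:147169689-147169706 on the plus strand, in a coding exon of Htr2c (exon 5 of 6 or exon 6 of 7 by transcript). Reads were 50 bases long, and 51 Snord116 and 99 Snord115 copies have no stretch of 50 bases that is theirs alone. A read lying wholly inside such a copy cannot be placed there by its sequence, while reads that run past its ends can differ.

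Along the host gene the Snord116 counts changed in steps. Places are counted from 1 at the 5′ end of Snhg14, and the borders of the stretches below were chosen after their values were seen. At places 1 to 10 (Snord116l10 to Snord116l2) the median over the 48 libraries was 0 to 3 reads per copy, and no library held more than 29. The next copy, Snord116l13, had a median of 81 reads, the 4 copies after it 114 to 114.5, and the 17 copies at places 16 to 32 had 131 to 132. Medians at places 34 to 50 were 125.5 to 129.5 reads. Gm26270 at place 54 stood at 247 reads (134 to 570) and Gm22285 at place 66 at 292.5 (137 to 607), while the last copies, Gm26504 and Gm23862, fell to 24.5 and 5. All 68 copies passed the filter of at least 5 reads in at least 3 libraries, and 32 of them had reads in every library. Of their 355533 reads 4.27% lay at the highest copy and 16.9% at the highest 6.

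**Figure D1:**
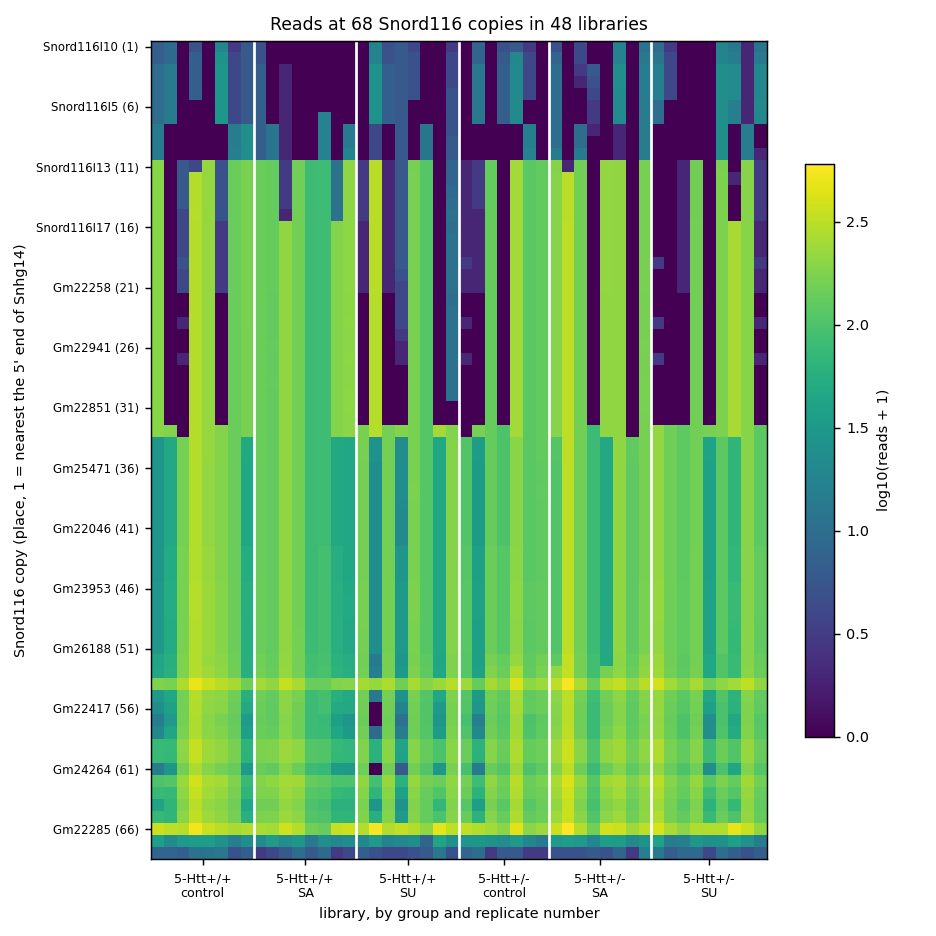
Reads at each of the 68 Snord116 copies (rows, in order from the 5′ end of Snhg14 at the top) in each of the 48 libraries (columns, by group), as log10(reads + 1) in colour. Columns are filled with long stretches of 1 colour that begin and end at the same places in many libraries, Gm26270 (place 54) and Gm22285 (place 66) stand out in all of them, and 18 libraries are empty at Gm22128 (place 32).

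Within a library, neighbouring copies often carried the same count. Taking counts as equal when they differed by no more than 2 reads or 2%, 68.3% of neighbouring Snord116 pairs with at least 5 reads were equal (1762 of 2580 pairs times libraries). In all 48 libraries 32 of the 67 neighbouring pairs were equal. Counts over all 48 libraries, here and below, drop the limit of 5 reads. Libraries with few or no reads at both copies then count as equal. Neighbours of identical sequence were equal in 77.6% of cases and neighbours of unlike sequence in 65.5%. Of 49 neighbouring pairs with unlike sequences, 23 were equal in every library, while copies of identical sequence, wherever they lay in the array, were equal in 18.8% of cases. Gm26433 and Gm22812, at places 17 and 18, are 52125 bases apart and had exactly the same count in all 48 libraries. That count was at least 5 reads in 32 of them.

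Most steps among the Snord116 copies lay at exons of the host. Where no annotated Snhg14 exon lay wholly between a pair of neighbours, they were equal in 92.2% of cases (1585 of 1719), and where an exon lay between them in 20.6% (177 of 861). Of 818 unequal cases 83.6% had an exon between. By this rule the exon that runs into Gm22128 does not lie between it and its neighbour Gm25210. Snord115 neighbours were equal in 58.3% of cases without an exon between and in 5.74% with one, but only 34.9% of their 1926 unequal cases had an exon between. Elsewhere in the genome, a related comparison with other rules was made for neighbouring small RNA rows of at most 130 bases. They lay on 1 strand, with at least 500 reads each and no more than 20000 bases apart. An exon of any longer gene on either strand counted there if it touched either row or the gap. Whole pairs were counted there, not pairs times libraries, so these counts cannot be set against the shares above. Equal counts in all 48 libraries were found for 5 of 10 pairs with no annotated exon between or over them and for 0 of 113 pairs with one. One such pair was Mir30c-1 and Mir30e, which lie 2983 bases apart, held 739 reads each and were identical in 44 libraries. Another was Mir767 and Mir105, identical in 48 libraries at 757 reads each. The 23 snoRNA rows of the other large imprinted array, on chromosome 12, were equal between neighbours in 11.4% of cases (75 of 658). This share was not split by exons, so it cannot be set against the split shares above. No source used here gives the treatment of reads split across a splice junction, and its part in these equal counts was not tested.

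The longest stretch of equal counts in a library covered 11 to 46 of the 68 Snord116 copies (median 24) and held 7.99% to 80.5% of all Snord116 reads (median 60.4%). In the 5-Htt+/+ groups the median stretch was 23 copies in C, 40 in SA and 22 in SU animals, and in libraries labelled 5-Htt+/- it was 23 in C, 33.5 in SA and 20 in SU animals, with ranges that overlapped throughout. The summed Snord116 level was higher where this stretch was longer (r = 0.643, rho = 0.699 over the 48 libraries), given as a description since both are made from the same counts. A sum over the copies adds these equal counts once per copy.

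Gm22128 and its neighbour Gm22851, at places 32 and 31, carried nearly the same counts. They were equal by the tolerance above in all 48 libraries, although Gm22851 differs by 3 bases and has stretches of 50 bases that no other member has. Gm22128 held 79 to 319 reads (median 167.5) in 30 libraries and 0 in the other 18, where a count of 0 allows up to 3 reads by counting error alone. Nothing lay in between. In all 30 libraries with reads it also equalled Gm25210, the next copy at place 33. In 15 of the 18 libraries without reads at Gm22128, Gm25210 still held 81 to 250 reads (median 162), so the loss fell between copies 2424 bases apart. Gm22128 lies inside an annotated exon of Snhg14 (chr7:59770277-59771948), and its twin in sequence, Gm22285, overlaps another (chr7:59676618-59678601). No other member overlaps a host exon. Gm22285 had 137 to 607 reads in every library. Reads of the snoRNA and of the host exon cannot be told apart at these 2 copies.

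By group, Gm22128 had reads in 5 of 8 C, 8 of 8 SA and 3 of 8 SU libraries of 5-Htt+/+ animals. Among libraries labelled 5-Htt+/- it had reads in 4 of 7 C, 6 of 8 SA and 4 of 9 SU libraries. On the log2 scale the SA minus SU difference was 1.16 (SE 0.755, adjusted p = 0.9993) for 5-Htt+/+ and 0.83 (SE 0.708, adjusted p = 0.9995) for 5-Htt+/-, so neither passed the test. Leaving out single libraries moved these differences over 0.947 to 1.83 and 0.638 to 1.13, with the highest values found without 5-Htt+/+ SU replicate 2 and without 5-Htt+/- SU replicate 7. Gm22851 gave 1.16 and 0.83 as well. Its twin Gm22285 had a median of 318.5 reads (261 to 527) in 5-Htt+/+ C, 277.5 (137 to 377) in SA and 309 (209 to 558) in SU libraries. In libraries labelled 5-Htt+/- the medians were 252 (200 to 452), 335.5 (156 to 607) and 291 (197 to 478). All 6 groups overlapped for both copies.

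**Figure D2:**
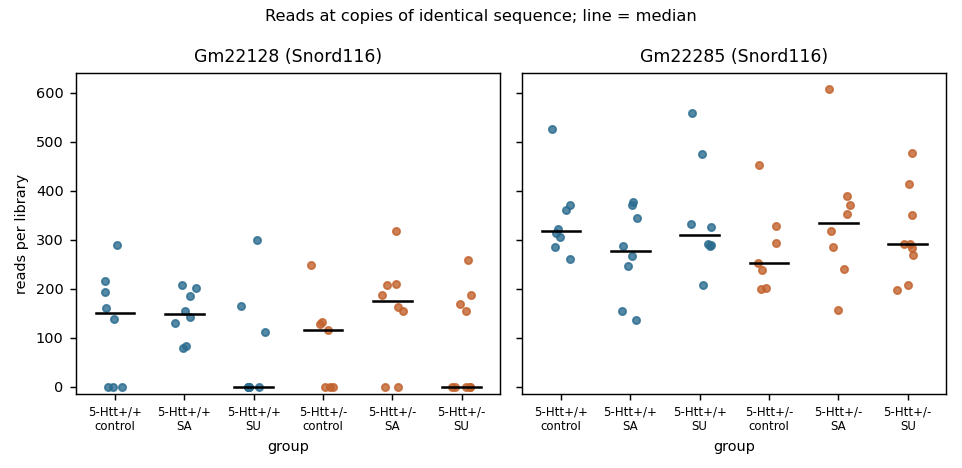
Reads per library at Gm22128 (left) and Gm22285 (right), Snord116 copies of identical sequence, by group, with 1 point per library and a line at the group median. Gm22128 is at 0 in 18 libraries and at 79 or more in the other 30, while Gm22285 holds 137 to 607 reads in all 48.

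Snord115 counts were low at the 5′ end of the array, highest at places 86 to 88 and 113, and low again at the 3′ end. Since 99 of the 137 copies have no stretch of 50 bases of their own, a low count need not mean little RNA. The first 54 of 137 copies, 39.4% of the array, held 0.683% of its 294558 reads, with at most 17 reads in any library and at most 104 over all. In all, 97 copies passed the filter and 40 did not, and those 40 lay among the first 47 places. From place 55 to 82 the median was 12 to 49 reads per copy. Gm25874, Gm23076 and Gm22111, at places 86 to 88, reached 532, 510 and 531.5 reads, and together held 26.9% of the reads of the family. The next copy, Gm24566, has the same sequence as Gm22111 but a median of 91 reads (0 to 177) against 286 to 1049 for Gm22111. The other high copy was Gm24862 at place 113 (304 to 983 reads, median 505.5), which was above both neighbours in all 48 libraries, at a median of 2.19 times the higher one. Gm25229 at place 106 also exceeded both neighbours in every library, as did Gm26270, Gm24609 and Gm22285 among the Snord116 copies. The last 22 copies had medians of 0 to 29.5 reads. The 6 highest Snord115 copies held 41.4% of the reads of the family.

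**Figure D3:**
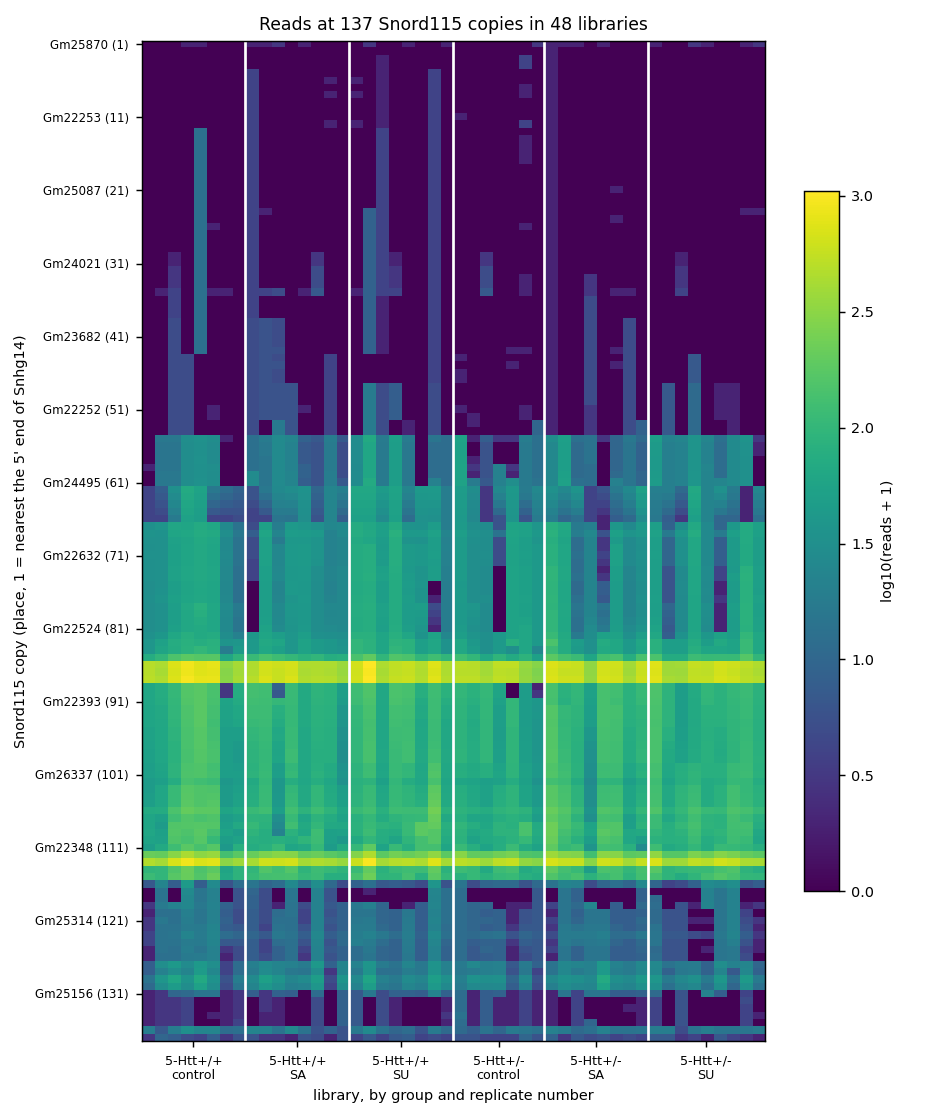
Reads at each of the 137 Snord115 copies (rows, in order from the 5′ end of Snhg14 at the top) in each of the 48 libraries (columns, by group), as log10(reads + 1) in colour. The first 54 rows are nearly empty, places 86 to 88 and 113 are among the brightest, and the last 22 rows are dim again, with medians of 0 to 29.5 reads.

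Levels were compared over the groups in CPM, for the highest copy of each family and for the sum. In bulk tissue, fewer cells making an RNA and less of it per cell cannot be told apart. Gm22285, the highest Snord116 copy, averaged 12.8 ± 2.77 CPM (SD, n = 48), followed by Gm26270 (10.2 ± 2.77), Gm24609 (7.68 ± 2.58), Gm26365 (6.72 ± 2.54), Gm25816 (6.64 ± 2.52) and Gm25155 (6.62 ± 2.53). In this order, the means of neighbours lay less than 1 SD over libraries apart, and all 6 copies are 94 bases long. That SD leaves out that the copies were counted in the same libraries. Library by library, Gm24609 was above Gm26365 in all 48, while Gm25816 and Gm25155 were equal in all 48 by the tolerance above. Group means of Gm22285 were 13.1 ± 2.82 (SD, n = 8) in 5-Htt+/+ C, 12.2 ± 4.18 (n = 8) in SA offspring and 14.6 ± 2.04 CPM (n = 8) in SU offspring. In libraries labelled 5-Htt+/- they were 11.4 ± 2.02 (n = 7) in C, 12.9 ± 3.16 (n = 8) in SA offspring and 12.3 ± 1.39 CPM (n = 9) in SU offspring. All 6 ranges overlapped, and no contrast of this copy passed the test (adjusted p 0.6124 to 1.0).

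The sum of the 68 Snord116 copies ran another way. It was 294.5 ± 111.1, 331.7 ± 119.7 and 259.2 ± 117.3 CPM in 5-Htt+/+ C, SA and SU animals (n = 8 each), and 267.9 ± 126.2 (n = 7), 352.9 ± 134.3 (n = 8) and 268.2 ± 90.3 CPM (n = 9) in libraries labelled 5-Htt+/-. Its log2 difference between SA and SU animals of 5-Htt+/+ was 0.457, against -0.324 for Gm22285 alone, and the former was smaller than the pooled SD of the sum (0.676). In the fit over all genes Gm22285 gave -0.27 (SE 0.152, adjusted p = 0.9993). Sums ranged from 85.38 to 609 CPM over the libraries, a wider span than that of Gm22285, which was 5.95 to 20.1 CPM.

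Among the Snord115 copies Gm22111 was the highest (23.1 ± 5.30 CPM, SD, n = 48), then Gm25874 (22.5 ± 4.96), Gm23076 (21.8 ± 5.00), Gm24862 (21.5 ± 4.77), Gm24866 (9.93 ± 2.42) and Gm23933 (4.82 ± 1.21). The means of the first 4 lay less than 1 SD over libraries apart. Library by library, Gm22111 was above Gm23076 in 47 of 48 and equal in 1, and Gm25874 was above Gm23076 in 34 and equal in 14. Gm22111 averaged 23.4 ± 6.71, 23.9 ± 6.09 and 26.6 ± 4.46 CPM in 5-Htt+/+ C, SA and SU animals (n = 8 each). In libraries labelled 5-Htt+/- it averaged 19.2 ± 6.03 (n = 7), 22.6 ± 2.44 (n = 8) and 22.6 ± 4.01 CPM (n = 9). The sum of the family was lowest in 5-Htt+/- C (205.9 ± 37.2 CPM, n = 7) and highest in 5-Htt+/+ SU animals (301.7 ± 63.0 CPM, n = 8), and the groups overlapped. Snhg14 took the same order at its ends, with 546.7 ± 140.7 CPM in 5-Htt+/- C and 669.8 ± 63.0 CPM in 5-Htt+/+ SU animals. Sums over members carry no test.

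**Figure D4:**
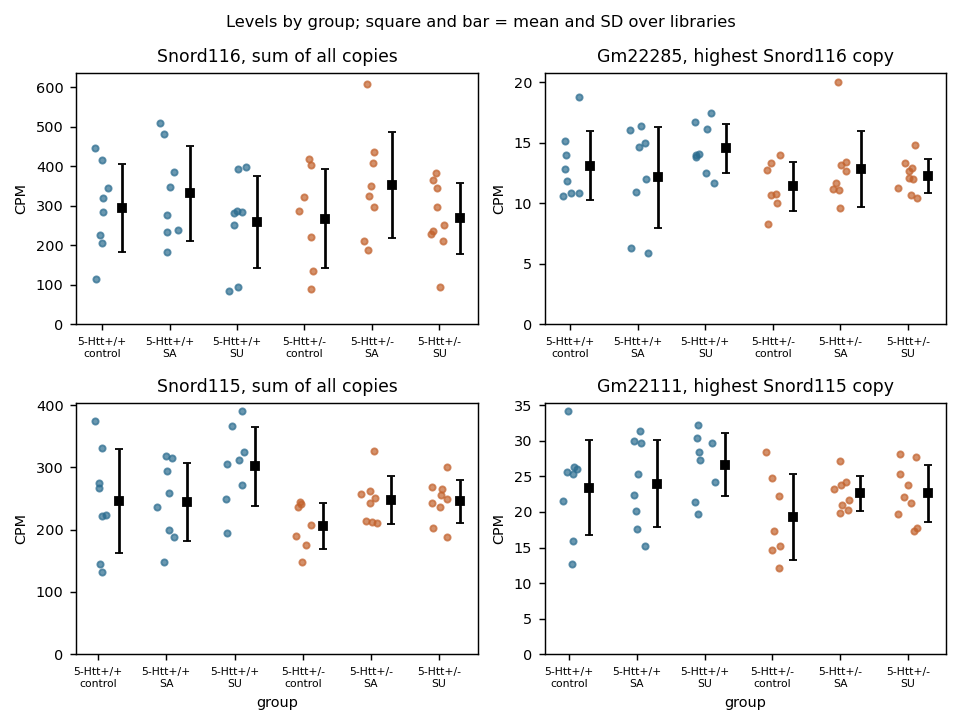
CPM per library (points) with the group mean and SD (square and bar) for the sum of 68 Snord116 copies, its highest copy Gm22285, the sum of 137 Snord115 copies and its highest copy Gm22111. The groups overlap in every panel, and the Snord116 sum, from 85.38 to 609 CPM, spreads more widely than Gm22285, from 5.95 to 20.1 CPM.

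Each copy was then tested across the groups, in a fit over 31208 genes that included the 165 members that passed the filter. No member passed an adjusted p of 0.05 in any of the 8 contrasts with the quasi-likelihood test of edgeR, with its likelihood ratio test or with DESeq2. At an unadjusted p under 0.05, the 3 tests gave 1 to 26, 5 to 23 and 1 to 14 members per contrast, while over all genes they gave 3.07% to 15.4%, 2.74% to 14.8% and 2.19% to 14.9%. Those members lay in stretches of neighbouring places with alike counts, so they are not independent of each other.

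In 5-Htt+/+ animals, SA was compared with C first. Of all genes 4 were called, 0.0128%. Among the members 6 had an unadjusted p under 0.05, 3.64% of those tested beside 3.07% of all genes (1.81% higher and 1.26% lower), and the 6 were lower in SA animals. They were the Snord116 copies at places 1 to 6, at the 5′ end, which are among the weakest of the family (180 to 291 reads over all libraries). Snord116l9 had the smallest p. It held 0 to 25 reads (median 5.5) in C and 0 in 7 of 8 SA libraries, with 4 in the other, a log2 fold change of -3.24 (SE 1.13, adjusted p = 1.0). It was -5.67 without 5-Htt+/+ SA replicate 1, the only one with reads, and -2.51 at most without any other library, and the groups overlapped at 0. The median log2 fold change was -0.0225 over the members and -0.00174 over all genes.

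SU animals of 5-Htt+/+ differed from C at 6 genes (0.0192%), none of them a member. All 11 members with an unadjusted p under 0.05 were Snord115 copies and higher in SU animals, which is 6.67% of the members tested beside 3.37% of all genes (1.59% higher and 1.78% lower). They formed 3 stretches, places 48 to 52 (only 89 to 91 reads per copy over all libraries), 62 to 66 and 83. Gm25098 at place 65 had 3 to 57 reads (median 5.5) in C and 14 to 54 (median 34.5) in SU libraries. Its log2 fold change was 1.19 (SE 0.423, adjusted p = 0.9978), and the groups overlapped. Medians were 0.306 over 97 Snord115 copies, -0.186 over 68 Snord116 copies and -0.00612 over all genes.

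The same copy had the smallest p between SA and SU animals of 5-Htt+/+, with 3 to 31 reads (median 13.5) in SA libraries and a log2 fold change of -1.34 (SE 0.450, adjusted p = 0.9993). SU libraries enter both comparisons. No gene was called there (0.0% of 31208), and 17 members had an unadjusted p under 0.05, 10.3% beside 3.9% of all genes (2.28% higher and 1.62% lower). Lower in SA were 16 of them, 14 from Snord115, and the exception was Gm23305 with 45 reads in all. The median log2 fold change was -0.379 for Snord115 and 0.0795 for Snord116 copies.

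Among libraries labelled 5-Htt+/-, SA animals were compared with C. Of all genes 9 were called, 0.0288%. Of 13 members with an unadjusted p under 0.05 (7.88% beside 12.1% of all genes, of which 5.17% higher and 6.96% lower) 10 were higher in SA animals, all Snord115 copies at places 85 to 107 with log2 fold changes of 0.438 to 0.522. The other 3 lay at places 132 to 134 and were lower. Gm25648 at place 134, with the smallest p, held 1 to 13 reads (median 1) in C and 0 to 3 (median 0) in SA libraries, a log2 fold change of -2.47 (SE 0.810, adjusted p = 0.2828), from -3.35 to -1.84 without single libraries. The share of members was below that of all genes.

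SU animals against C of the same label gave 5 called genes (0.016%) and 12 members with an unadjusted p under 0.05, 7.27% beside 15.4% of all genes (6.74% higher and 8.71% lower). Higher in SU were 10 of them, of which 3 at places 48 to 50 held only 89 reads each over all libraries. Gm24872 at place 102 had the smallest p. It held 34 to 73 reads (median 52) in C and 55 to 120 in SU libraries (median 76), a log2 fold change of 0.65 (SE 0.216, adjusted p = 0.1776). Between SA and SU animals no gene was called (0.0%), and 1 member had an unadjusted p under 0.05 (0.606% beside 3.79% of all genes, 1.63% higher and 2.16% lower). This was Gm25085, with reads in 4 of 8 SA and 0 of 9 SU libraries, 54 in all.

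Over all groups, libraries labelled 5-Htt+/- were set against those labelled 5-Htt+/+. Called were 7 genes (0.0224%), all higher, Slc6a4 among them (log2 fold change 6.72, adjusted p = 1.786e-52), and none was a member. A total of 26 members had an unadjusted p under 0.05, 15.8% beside 5.01% of all genes, and all 26 were Snord115 copies that were lower (2.57% of all genes were higher and 2.44% lower). They fell into 7 stretches and held 21 distinct sets of counts. Members at places 35, 39 to 43 and 48 to 52 held only 50 to 91 reads each over all libraries. The highest copies were also among the 26, Gm22111 with a log2 fold change of -0.20 (SE 0.0910, adjusted p = 0.9258) and Gm24862 with -0.18. The smallest p belonged to Gm24654, which had 50 reads in all and none in C or SU libraries labelled 5-Htt+/-. Its fitted value of -2.80 (adjusted p = 0.7268) depends on the fit and is no bound. Snhg14 itself gave -0.13 (SE 0.0726, adjusted p = 0.9258) and Gm22285 gave -0.11 (SE 0.0875, adjusted p = 0.9258). Median log2 fold changes were -0.185 over Snord115, 0.0887 over Snord116 copies and -0.000947 over all genes.

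The three-way contrast asked whether the SA to SU difference depends on genotype, and it called no gene (0.0%). It had 3 members with an unadjusted p under 0.05, 1.82% beside 3.7% of all genes (2.21% higher and 1.49% lower), and the 3 were lower. Gm26230 at place 123 had the smallest p (log2 fold change -1.07, SE 0.436, adjusted p = 1.0). Gm22128 gave 0.33 (SE 1.04), Gm22285 -0.35 (SE 0.210), Gm22111 -0.16 (SE 0.218) and Snhg14 -0.13 (SE 0.175), each with an adjusted p of 1.0.

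The host region was followed across all 48 libraries, with log2 levels and 15 pairs tested. Gm22111 rose and fell with Snhg14, the transcript that contains it (r = 0.931, rho = 0.928, permutation p = 1e-05 for both, the smallest 100000 permutations can give, adjusted p = 0.00015). Without the 2 libraries farthest out r was 0.907, and with each group centred on its mean 0.926. Host reads counted at the copy and reads of the snoRNA itself cannot be told apart, so this may in part be a relation of the host with its own reads. It also rose with Ube3a, the ubiquitin ligase that Snhg14 overlaps in antisense (r = 0.551, permutation p = 4e-05, adjusted 0.0003, and rho = 0.444, permutation p = 0.0018, adjusted 0.014), with r = 0.453 without the 2 libraries farthest out. The strand setting of the counting is not given, so reads of the 2 transcripts cannot be told apart where they overlap. With Snrpn, a spliceosome protein gene upstream of Snhg14, the relation was negative (r = -0.384, permutation p = 0.0072, adjusted 0.025, and rho = -0.369, permutation p = 0.01, adjusted 0.033), with r = -0.331 without the 2 farthest. The share of mitochondrial counts rose with Gm22111 (r = 0.377, permutation p = 0.0083, adjusted 0.025, and rho = 0.364, permutation p = 0.011, adjusted 0.033), and its part in the other relations was not tested. The 1 other row inside the window rose with Gm22111 too (r = 0.468, permutation p = 0.00086, adjusted 0.0043, and rho = 0.413, permutation p = 0.004, adjusted 0.02), with r = 0.384 without the 2 farthest.

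Gm22285 did not share this pattern at the same threshold. Its relation to Snhg14 was r = 0.271 (permutation p = 0.062, adjusted 0.13) and rho = 0.214 (permutation p = 0.14, adjusted 0.26), and that to Gm22111 was r = 0.334 (permutation p = 0.02, adjusted 0.051) and rho = 0.323 (permutation p = 0.025, adjusted 0.063). Whether the 2 relations to Snhg14 differ was not tested. The sums, given with no test, had r = 0.806 with Snhg14 for Snord115 and 0.0858 for Snord116. Over 19917 genes with at least 1 CPM, the gene most like Gm22111 by rho was Snhg14 itself, followed by Wdr60 (0.819) and Rnf20 (0.808). Most like Gm22285 was Mycbp2 (0.632). For the Snord116 sum the first 5 were Ror1 (0.447), Gm43329 (0.438), Scfd2 (0.425), Gm44623 (0.424) and Inca1 (0.42), all weak.

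**Figure D5:**
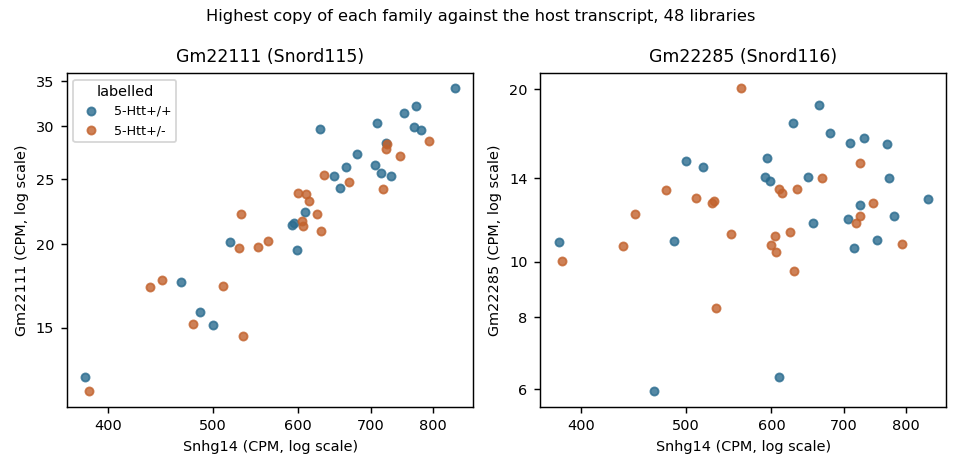
CPM of Gm22111 (left, Snord115) and Gm22285 (right, Snord116) against Snhg14, both axes on a log scale, with 1 point per library and colour by labelled genotype. Points of Gm22111 follow a line (r = 0.931) and those of Gm22285 form a cloud (r = 0.271).

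Of the Prader-Willi and Angelman genes around the clusters, 18 were tested and 0 were called in any contrast, up or down. Ndn, a paternally expressed growth suppressor of neurons, was 155.7 ± 16.8 CPM in C (n = 7) and 139.0 ± 13.1 CPM in SA libraries (n = 8) labelled 5-Htt+/-, a log2 fold change of -0.16 (SE 0.0661, adjusted p = 0.3584). Peg12 had the smallest p of the list, between SA and SU animals of 5-Htt+/+ (1.80, SE 0.494, adjusted p = 0.9993), and Nipa2, a magnesium transporter gene, gave 0.157 (SE 0.0654, adjusted p = 0.2564) for SU against C of 5-Htt+/-. Snrpn and Snurf, which overlap each other and Gm38393, so that their reads are uncertain, ranged from -0.0861 to 0.156 and -0.111 to 0.236 over the 8 contrasts. Magel2 was low, at 0.557 to 2.48 CPM. The medians of this list lay between -0.0293 and 0.0488. Over the libraries, as a description with no test, Snhg14 had rho = -0.694 with Ndn, -0.457 with Snrpn, -0.0506 with Magel2 and 0.652 with Ube3a. With Rian, Meg3 and Mirg, long noncoding RNAs of the imprinted chromosome 12 region, rho was 0.819, 0.715 and 0.408.

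Of 14 genes for box C/D proteins and their assembly 0 were called. Rrp9 had the smallest p (-0.207, SE 0.0734, adjusted p = 0.1968, SU against C of 5-Htt+/-), followed by the helicase gene Ruvbl2 (-0.169, adjusted p = 0.2556) in the same contrast. The 4 genes of the box H/ACA particle, which guides pseudouridine, gave 0 calls, with Nop10 at 0.102 (adjusted p = 0.9258) between genotype labels. Htr2c, to which Snord115 is complementary in part, was 39.0 to 44.1 CPM on average in the groups, and its log2 fold changes ranged from -0.127 to 0.143 (adjusted p 0.5864 to 1.0). Of the 7 genes for Htr2c and its editing and splicing 0 were called, and Adar, which edits adenosines, gave -0.129 (SE 0.0478, adjusted p = 0.3347) for SA against C of 5-Htt+/-.

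None of 11 other host genes was called, and Snhg8 had the smallest p (-0.419, SE 0.127, adjusted p = 0.1384, SU against C of 5-Htt+/-). Of 1303 other snoRNA rows 522 were tested and 0 were called in any contrast. Of the 23 rows of the chromosome 12 array, all tested, 9 had an unadjusted p under 0.05 for SA against C of 5-Htt+/-, all higher, beside 12.1% of all genes (5.17% higher), with a median log2 fold change of 0.33 beside -0.00844 over all genes. The smallest p among them was that of AF357428 (3.16, SE 1.27, adjusted p = 0.3528). In the same contrast the 68 Snord116 and 97 Snord115 copies had medians of 0.341 and 0.377. In every other contrast 0 rows of the chromosome 12 array were higher at this threshold and at most 1 was lower. The 6 genes of that chromosome 12 region gave 0 calls, with Dlk1 at 0.645 (SE 0.232, adjusted p = 1.0) in the contrast of genotype and sociability. RNAs that lack a poly(A) tail, a list of 1516 rows of which 481 were tested, gave 0 calls and medians between -0.0338 and 0.0193.

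Markers of cell types and regions were summed in 8 lists, each with reads at all its genes in every library. Over the 48 libraries Gm22111 had r = -0.633 with the summed markers of hippocampal fields, -0.59 with those of microglia, -0.546 with those of neurons, -0.408 with those of endothelium and 0.491 with those of thalamus, while Gm22285 lay between -0.209 and 0.134 with every list. These are descriptions with no test, over values that share the library total. The 5 choroid plexus markers ranged from 24.3 to 891 CPM in sum, with medians of 42, 396 and 30 CPM in 5-Htt+/+ C, SA and SU libraries and 44.7, 38 and 270 CPM in those labelled 5-Htt+/-, and had r = 0.0484 with Gm22111 and 0.0212 with Gm22285. The part of tissue composition in the levels above was not tested.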

How the data were processed

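For 48 hippocampus libraries, each taken as 1 animal, raw counts of reads at each gene were deposited by the authors without normalisation. STAR, HTSeq and DESeq2 are named in the submitters' processing notes, with the build GRCm38.p5, and the study's methods name STAR, Salmon and tximport. Not given in the sources used here are the versions of the aligner and counter, whether counting used strand, and how spliced or multiply placed reads were treated. The gene rows are those of GRCm38, and copies and exons were read from GENCODE transcripts and annotation of that build.

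The members and lists were chosen with earlier results of these data known. The filter kept 31208 of 48440 rows, those reaching 5 reads in 3 or more libraries. In R 4.3.3, edgeR 4.0.16 with upper quartile factors fitted a mean for each of 6 groups over all 48 libraries. Its quasi-likelihood F test gave the p of each of 8 contrasts, adjusted by Benjamini-Hochberg over all genes, and the fit was tested on simulated data. Standard errors are the log2 fold change over the square root of F. CPM uses scaled library sizes, and differences of sums and correlations use log2(CPM + 0.5). Correlations have two-sided permutation tests (100000 permutations, 15 pairs), with no p for sums over members, although one had been planned. DESeq2 1.42.0, the likelihood ratio test, other scalings and filters, the replicate block and leaving out each library were alternatives. Using the highest copy in place of a sum and centring values on their group were chosen after seeing the data.

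Named were both markers, the 6 highest copies per family, the member with the smallest p in each contrast, up to 3 genes per list by smallest p, the host genes Snhg14, Snrpn, Snurf, Ube3a, Ndn and Magel2, Htr2c, and the 5 genes of highest rho to the Snord116 sum. Other copies named for their place or sequence were chosen after their values were seen. No pair of the 169 pairs of libraries within groups was close enough to be 1 library deposited again (chi-square per gene of at least 2.53 over 20857 genes). The limit on a count of 0 covers counting error only, and since litters are not in the labels, p-values may be too small.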

Additional observations from a re-analysis of the deposited data

Results flagged for a closer look

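In 126 groups of 7 to 9 libraries, 10 values stood apart from the rest of their group by Dixon's 95% criterion, beside 6.3 that chance alone would give at 1 in 20. The 6 highest Snord116 copies all stood out in 1 library, 5-Htt+/- SA replicate 2, so they are not 6 independent values. There Gm22285 reached 20.1 CPM (next 13.4), Gm26270 18.8, Gm24609 13.8, Gm26365 12.5, and Gm25816 and Gm25155 12.4 each. The Snord115 sum was highest in 5-Htt+/- SA replicate 1, at 326 CPM with the next at 261. Among the host genes, Ube3a was lowest in 5-Htt+/+ SU replicate 4 (124 CPM, next 160), Ndn was highest in 5-Htt+/- SA replicate 7 (171 CPM, next 137), and Magel2 was highest in 5-Htt+/+ control replicate 4 (2.48 CPM, next 1.67).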

How the results depend on the processing

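Contrasts are given here in 1 order, SA and then SU against control for 5-Htt+/+, the same for 5-Htt+/-, SA against SU for 5-Htt+/+ and for 5-Htt+/-, genotype label, and three-way. The count of members called was 0 in all 8 under each test, scaling, filter and choice of samples that was run, and in each of the 48 fits without 1 library. Of 165 members, 6, 11, 13, 12, 17, 1, 26 and 3 had an unadjusted p under 0.05. With the replicate block there were 10, 13, 32, 27, 23, 0, 26 and 4, beside 3.13%, 3.63%, 14.1%, 14.9%, 4.03%, 3.99%, 5.59% and 4.16% of all genes. With DESeq2 there were 5, 6, 11, 10, 10, 1, 14 and 4, beside 2.19%, 2.5%, 10.9%, 14.9%, 3.16%, 3.0%, 4.5% and 3.03%. Without the filter on low counts the genotype label had 51 of 205, beside 4.74% of all genes. Deviations from the group mean were correlated between libraries of different groups. With the same replicate number r was -0.441 to 0.658 (median 0.035), and for other pairs -0.643 to 0.7 (median -0.004). Whether the number follows a batch was not tested. Over all genes the main test called 4, 6, 9, 5, 0, 0, 7 and 0, the replicate block 7, 4, 3, 2, 1, 0, 8 and 0, the likelihood ratio test 0, 1, 21, 88, 0, 1, 11 and 0, the stricter filter 0, 0, 9, 8, 0, 0, 6 and 0, and DESeq2 0, 3, 25, 243, 1, 0, 10 and 0, with an adjusted p for 125 and 86 of 165 members in the third and the fourth. TMM scaling called 16 in the fourth. The cause was not tested. Of the values with no test, 2 moved by more than the spread between libraries, both with the highest copy in place of the sum, an alternative chosen after seeing the data. The Snord116 difference between SA and SU animals of 5-Htt+/+ went from 0.457 to -0.324 with Gm22285, and the correlation of Snord115 with Snhg14 from 0.806 to 0.931 with Gm22111. Without single libraries the Snord116 sum ranged over 0.256 (without SU replicate 4) to 0.572 for SA minus SU of 5-Htt+/+, over 0.226 (without SU replicate 5) to 0.517 for 5-Htt+/-, and over -0.149 (without control replicate 2) to 0.258 for SU minus control of 5-Htt+/-, where its sign turned, as did that of other differences of the sums or of Snhg14 that lay near 0. Its r with Snhg14 was 0.0858, and 0.159 without the 2 libraries farthest out. Copies under 100 reads over 48 libraries give little precision, and reads lying wholly inside a copy with no stretch of 50 bases of its own cannot be placed by sequence.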
